A study of Mus musculus with 7 samples.

Results

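Enhancers that lie close together can act on the same gene, and dense groups of strong open-chromatin sites mark many genes that set cell identity. The groups described here are chains of strong distal accessible sites in wild-type (WT) epiblast-like cells (EpiLCs), followed in EpiLCs that lack Smad2 and Smad3. Nodal and Activin ligands signal through the receptor-activated Smad2 and Smad3 proteins, which pair with Smad4 and reach DNA largely through partners such as the forkhead factor FoxH1. EpiLCs are made from embryonic stem cells in culture and resemble the early postimplantation epiblast, in which this pathway maintains Nodal expression and starts mesoderm and endoderm programmes.

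A site was taken as strong when its WT concentration was at least 6. Concentration is the log2 of the authors' mean normalized read number for a genotype, so 6 stands for 64 normalized reads. A site was distal when its midpoint was over 2.5 kb from every curated RefSeq transcription start site (TSS), and only autosomal sites entered. Strong distal sites were joined when the gap between neighbours was at most 12500 bp, and chains of 3 or more sites were kept. Of 75880 listed sites, 10699 were strong and distal, and 437 of these (4.08%) formed 134 chains. There were 104 chains of 3 sites, 25 of 4 and 5 of 5. The members were selected on the WT concentration, so the DKO minus WT difference in them is a description and no test was run on it.

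Accessibility was measured by ATAC-seq, in which Tn5 transposase cuts and tags open DNA, in day 2 EpiLCs from 3 differentiations of each genotype. The WT cells were the embryonic stem cell clone CCE, and the Smad2/3 double-knockout (Smad2/3 DKO) cells were the clone KT15.1F6, which carries the null allele pair Smad2 tm1Rob/tm1Rob and a CRISPR deletion of the promoter and exon 1 of Smad3. The labels give the strain 129/Sv//Ev for both, and each culture was held for 48 h in 20 ng/ml Activin A and 12 ng/ml Fgf2 on fibronectin. Each genotype was 1 clone, so clone and genotype cannot be told apart. Genomic DNA of WT EpiLCs cut with Tn5 was the control library for site calling, and no value of it is given here. The table held 1 value per genotype and site and none per library. Depth and the spread between differentiations could not be computed from these columns. The authors' own per-site test columns were not used here, so all values below are the authors' means, given with no error.

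As a check of the inactivated genes, the promoter site of Smad3 went from 5.42 in WT to -0.10 in DKO, which is the lowest DKO value listed. That of Smad2 went from 8.35 to 8.28, so accessibility there did not separate the genotypes. Accessibility is a weak check of cell type. Sites lay within 1 kb of a TSS for 7 of 8 EpiLC markers fixed for this purpose, Otx2 being the exception, but also for 9 of 12 markers of other cells.

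The sequences of 3 sites that were lower in DKO are shown first, because each had the largest difference in its chain, and these chains were among the 5 with the lowest mean. Each is 300 bases around the site's midpoint from the RefSeq GRCm38.p6 assembly (mm10), plus strand, 5′ to 3′. Capitals mark matches, on either strand, to any of the 14 strings searched: FoxH1 TGTGGATT, octamer ATGCAAAT, Sox CATTGTT, Otx2 GGATTA, Foxd3 TGTTTAC, Smad palindrome GTCTAGAC, GC-rich Smad GGCGCC, Tead GGAATG, Esrrb TCAAGGTCA, Klf GGGNGNGGC, AP-1 TGANTCA, the insulator factor CTCF CCACNAGNG, Zic CAGCAGG and E-box CACCTG. A match is a run of letters and not a bound site, and no match says only that the letters are not in the window.

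Beside Tcf7l1 (chr6:72825216-72825515): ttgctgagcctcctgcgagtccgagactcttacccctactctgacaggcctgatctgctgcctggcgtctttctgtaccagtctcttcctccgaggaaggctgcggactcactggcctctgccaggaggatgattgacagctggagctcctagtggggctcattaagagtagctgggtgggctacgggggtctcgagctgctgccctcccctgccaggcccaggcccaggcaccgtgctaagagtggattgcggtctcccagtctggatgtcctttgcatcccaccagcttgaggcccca
Intron of Bckdhb (chr9:84024761-84025060): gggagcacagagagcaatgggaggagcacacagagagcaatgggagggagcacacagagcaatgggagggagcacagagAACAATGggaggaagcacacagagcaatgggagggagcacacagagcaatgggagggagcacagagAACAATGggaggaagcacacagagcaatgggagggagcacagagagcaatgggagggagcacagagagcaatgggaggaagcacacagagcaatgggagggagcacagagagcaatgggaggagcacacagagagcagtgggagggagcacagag
Upstream of Nr2f2 (chr7:70584346-70584645): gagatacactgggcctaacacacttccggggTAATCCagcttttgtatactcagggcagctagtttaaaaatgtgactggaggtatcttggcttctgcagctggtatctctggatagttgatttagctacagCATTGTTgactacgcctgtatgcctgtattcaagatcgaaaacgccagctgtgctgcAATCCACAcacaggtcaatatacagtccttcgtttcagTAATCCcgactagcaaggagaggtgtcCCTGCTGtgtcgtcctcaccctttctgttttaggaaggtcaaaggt

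The window beside Tcf7l1 held no match. That in Bckdhb held 2 Sox matches. The window upstream of Nr2f2 held the FoxH1 string together with a Sox, a Zic and 2 Otx2 matches. The Bckdhb window is a tandem repeat, with 82 distinct stretches among its 289 stretches of 12 bases, against 288 of 289 in the window beside Tcf7l1 and 289 of 289 in that upstream of Nr2f2. Over 500 bases it had the lowest share of distinct 12-base stretches of all 437 chained sites, 40.9%, and the median of these was 100%. It also had the largest difference of all of them, from 6.59 in WT to 3.33 in DKO. Whether the repeat had a part in that value was not tested.

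Sequences of 4 further sites serve as contrast. They are the site with the largest difference in each of the 2 chains with the highest mean, in Etl4 and Stox2, and the site of the Bckdhb and Nr2f2 chains that differed least downward. The last 2 were chosen after their values were seen.

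Intron of Etl4 (chr2:20669236-20669535): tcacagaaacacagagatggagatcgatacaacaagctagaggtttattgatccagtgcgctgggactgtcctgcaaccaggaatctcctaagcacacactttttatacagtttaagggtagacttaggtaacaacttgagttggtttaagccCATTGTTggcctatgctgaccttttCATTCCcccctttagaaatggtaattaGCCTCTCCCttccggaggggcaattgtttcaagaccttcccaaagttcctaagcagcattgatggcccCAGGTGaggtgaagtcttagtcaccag
Intron of Stox2 (chr8:47334206-47334505): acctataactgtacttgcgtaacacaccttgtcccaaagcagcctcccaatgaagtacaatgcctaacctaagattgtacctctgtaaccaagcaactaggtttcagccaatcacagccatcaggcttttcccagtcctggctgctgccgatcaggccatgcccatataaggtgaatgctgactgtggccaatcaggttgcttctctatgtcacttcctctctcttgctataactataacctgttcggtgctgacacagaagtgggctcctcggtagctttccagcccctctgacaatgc
Intron of Bckdhb, second site (chr9:84018166-84018465): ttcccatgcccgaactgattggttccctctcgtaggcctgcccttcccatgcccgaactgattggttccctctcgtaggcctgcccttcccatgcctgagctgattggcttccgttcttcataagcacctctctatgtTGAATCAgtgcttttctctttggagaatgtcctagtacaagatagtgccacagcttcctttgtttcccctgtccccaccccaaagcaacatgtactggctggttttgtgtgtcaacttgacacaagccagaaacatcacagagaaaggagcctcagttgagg
Upstream of Nr2f2, second site (chr7:70591636-70591935): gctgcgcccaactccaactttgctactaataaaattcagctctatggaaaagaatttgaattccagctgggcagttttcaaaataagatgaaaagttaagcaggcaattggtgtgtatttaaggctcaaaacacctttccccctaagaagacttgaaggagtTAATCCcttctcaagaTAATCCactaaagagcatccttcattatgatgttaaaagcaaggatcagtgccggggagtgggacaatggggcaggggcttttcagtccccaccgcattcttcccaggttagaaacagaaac

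The Etl4 window held a Sox, a Tead, a Klf and an E-box match, and the Stox2 window none. The second Bckdhb site went from 7.11 to 7.42 and held an AP-1 match. The second Nr2f2 site was at 6.20 in WT and 6.22 in DKO and held 2 Otx2 matches. It lies within the same chain as the site that fell by 2.21. The FoxH1 string was in the window of that lower site and not in that of this chosen neighbour. The chain's remaining site is not shown, and the lower windows beside Tcf7l1 and in Bckdhb did not hold the string. One such pair is an example only.

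Most chains were slightly less accessible in Smad2/3 DKO EpiLCs, and few moved as a whole. A chain's difference is the mean of its sites' DKO minus WT differences in log2 concentration. The median over the 134 chains was -0.23, with the middle 50% of chains between -0.36 and -0.05 and a range from -1.55 to 0.35. The chains' median mean concentration was 6.86 in WT and 6.71 in DKO. In 113 chains the mean was below 0 and in 20 above 0. All sites lay below 0 in 66 chains, all above 0 in 6, and the rest were mixed. By single site, 74.6% of chained sites lay below 0, against 69.6% of strong distal sites in no chain and 57.4% of all listed sites. The median difference of all listed sites was -0.08. The mean fell past 1.5-fold (0.58 on the log2 scale) in 11 chains, 8.21%, and rose past it in none. Among all 75880 listed sites the background was 16.0% lower and 8.51% higher past the same limit. That background counts single sites of every strength, while a chain's value is a mean over several strong sites and passes a fixed limit less readily, so the chains' share is not compared with it. In pooled cells, fewer cells with a site open and a lower cutting rate per cell cannot be told apart. The scatter of WT against DKO concentration shows most chains close to the line of equal values.

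**Figure D1:**
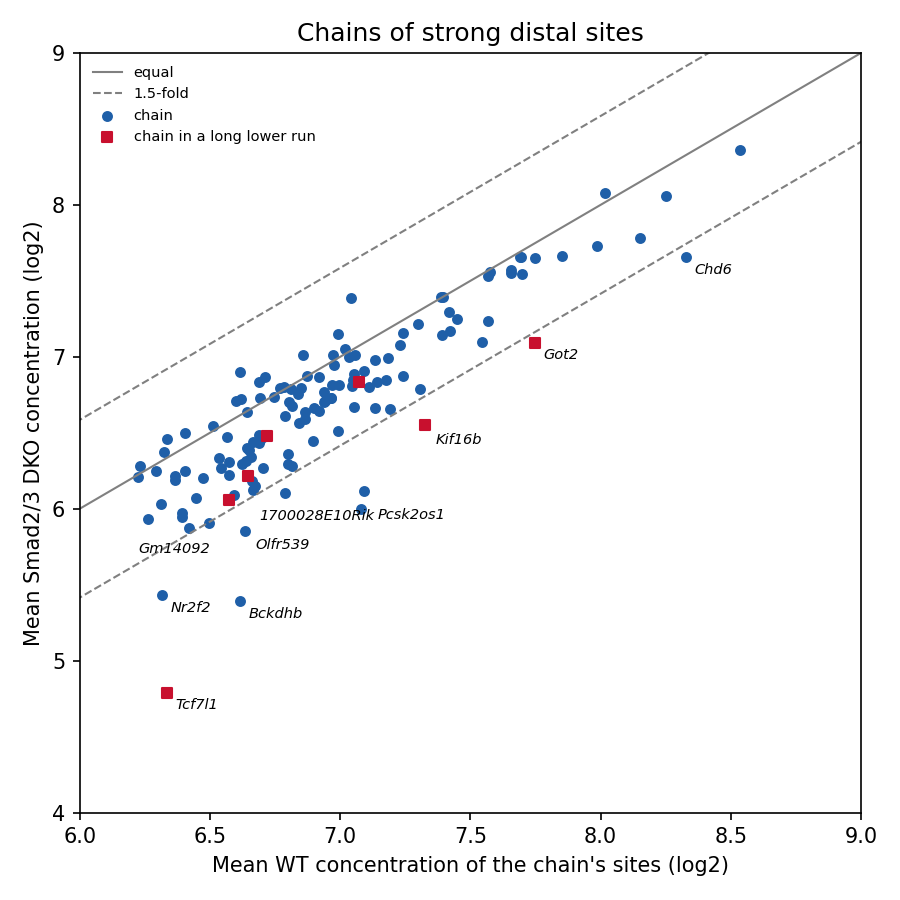
Mean log2 concentration of each of the 134 chains in WT (x axis) and Smad2/3 DKO EpiLCs (y axis), with the line of equal values solid and 1.5-fold dashed. Below the lower dashed line lie 11 chains, 10 of them named, and none lies above the upper one, and red squares mark the 7 chains inside long lower stretches of the chromosome.

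Selection on WT values by itself places members on the side where WT is high, and the size of the shift depended on it. Chains built by the same rule on the DKO concentration numbered 97, with a median difference of -0.06, 1.03% lower and 2.06% higher. Built on the concentration over both genotypes there were 114, with a median of -0.14, 2.63% lower and 0.877% higher. The sign of the median was the same under the 3 choices. On the DKO concentration, however, the median was no lower than that of all listed sites, -0.08, and more chains were higher than lower. At the limit of the rule, 33 chained sites had WT concentrations from 6.00 to 6.09 and a median DKO concentration of 5.93, and 1062 distal sites just outside it, at 5.90 to 5.99, had 5.77. The largest gap within a chain was 12490 bp, and the smallest that kept neighbours apart was 12520 bp.

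Chained sites did not stand apart from other strong distal sites in how often they were lower. Of the 437 chained sites 61 were lower past 1.5-fold, 14.0% (95% Wilson interval 11.0 to 17.5, which treats sites as independent and covers counting over sites only). Of the 10262 strong distal sites in no chain, 1458 were lower, 14.2% (13.5 to 14.9). The median difference was -0.18 for chained and -0.17 for the others. By number of neighbours the share was 14.5% of 8554 single sites and 12.7% of the 1708 sites in chains of 2. Increases were rarer. Only 1 chained site, in Etl4, was higher past 1.5-fold (0.229%), against 116 of the others (1.13%), and the interval for the chained sites, 0.0404 to 1.28%, includes the share of the others. In DKO 79.9% of chained and 78.6% of other strong distal sites still had a concentration of at least 6.

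The result was similar at matched WT level. At WT concentrations of 6 to 6.5, 16.3% of 153 chained and 15.8% of 4182 other sites were lower. At 6.5 to 7 the shares were 20.9% of 110 and 14.9% of 2695. At 7 to 8 they were 7.50% of 120 and 12.8% of 2643, and from 8 they were 7.41% of 54 and 7.82% of 742. The chained share was the higher in both bins below 7 and the lower in both bins from 7, and the intervals overlapped in each.

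**Figure D2:**
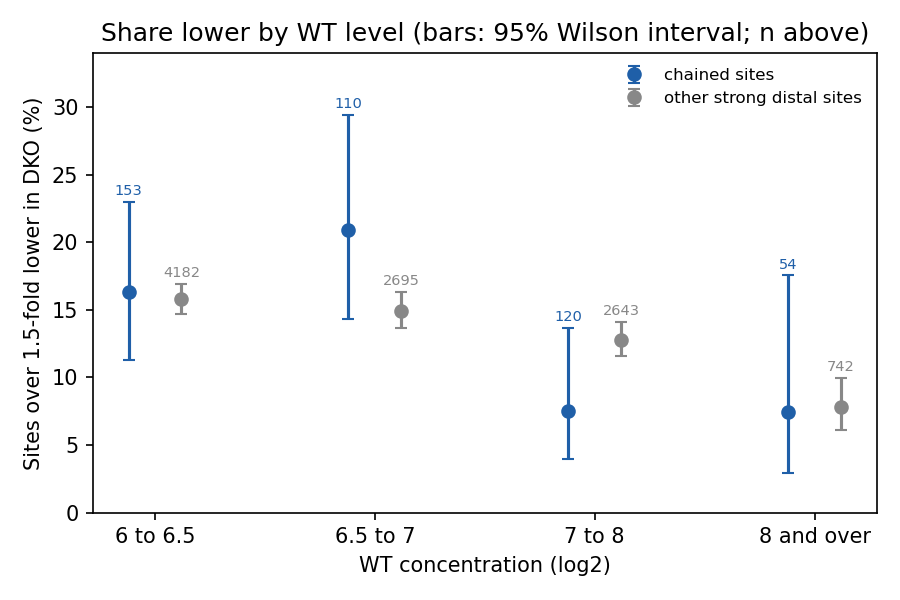
Percent of sites over 1.5-fold lower in Smad2/3 DKO EpiLCs (y axis) by WT log2 concentration (x axis), for the 437 chained sites (blue) and the 10262 other strong distal sites (grey). Bars are 95% Wilson intervals over sites and the numbers above them are sites, and the intervals of the groups overlap in all 4 bins.

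Most chains with a lower site had 1 such site. At least 1 site was lower past 1.5-fold in 48 chains: exactly 1 in 37 of them, exactly 2 in 9, and every site in the remaining 2, beside Tcf7l1 and in Pcsk2. As 14.0% of chained sites were lower and a chain holds 3 to 5 of them, nothing particular to chains is read from these counts. The standard deviation of the difference over the sites of a chain had a median of 0.24 and reached 1.84 in Bckdhb. Of 303 pairs of neighbouring chained sites, 10 had both sites lower, 67 had 1 and 226 had none. The correlation of the differences of neighbours was weak (Pearson's r = 0.17 over 303 pairs, which share sites). The variance between chains made up 21.7% of the variance of the difference, and 14.8% without the sites in long lower stretches. The share was 46.1% for GC content and 7.01% for the WT concentration itself. In the plot of all sites by chain, single points lie far below their chain's mean along the whole left part.

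**Figure D3:**
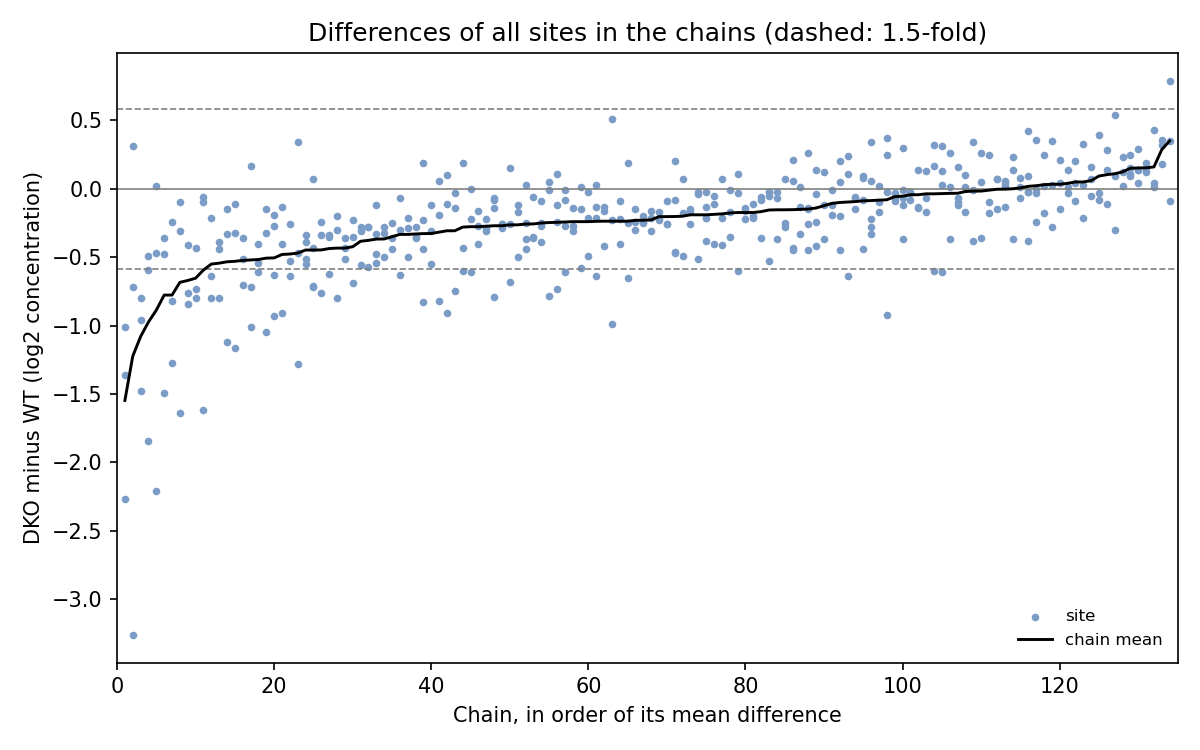
DKO minus WT difference in log2 concentration (y axis) of each of the 437 chained sites (points), with the 134 chains in order of their mean (x axis; black line). Dashed lines mark 1.5-fold; 1 point lies above the upper line, and 61 points lie below the lower one, many of them in chains whose mean does not cross it.

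Of the 11 lower chains 10 are described, each by the gene with the nearest TSS, which is a name and not a target. The lowest mean, -1.55, was beside Tcf7l1, which encodes Tcf3, a repressor acting at Wnt target genes in pluripotent cells. Its 3 intergenic sites, 36320 to 42465 bp from the TSS, went from 6.59 to 4.32, from 6.35 to 5.34 and from 6.07 to 4.71. It was the only chain with no site at a concentration of 6 in DKO. The chain lay within a stretch of chromosome 6 of 11.9 Mb in which 201 sites had a median difference of -1.09. Other sites within 1 Mb of it had a median of -1.16, so most of the chain's difference was shared with its surroundings.

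The chain in an intron of Bckdhb, which encodes a subunit of the branched-chain ketoacid dehydrogenase, had a mean of -1.22 from unlike sites. The tandem repeat shown above fell by 3.26, the site 3′ of it on the plus strand went from 6.15 to 5.43, and the first site was higher in DKO by 0.31. Other sites within 1 Mb had a median of -0.10.

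In Pcsk2, which encodes a prohormone convertase, 3 intronic sites nearest to the TSS of Pcsk2os1 went from 6.66 to 5.70, from 6.14 to 4.66 and from 8.44 to 7.64. All 3 passed 1.5-fold and the mean was -1.08. The surrounding median was -0.18. Outside the long lower stretches it was the only chain with every site lower past this limit.

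Upstream of Nr2f2, which encodes the nuclear receptor COUP-TFII, the sites lay 209704 to 225039 bp from the TSS. The outer sites went from 6.17 to 5.70 and from 6.20 to 6.22, and the middle site from 6.58 to 4.37, so the mean of -0.89 rested on 1 site.

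The same held for the chain in Slc24a3 nearest to Gm14092, with a mean of -0.59. Its middle site went from 6.51 to 4.89 while the outer sites went from 6.58 to 6.52 and from 6.40 to 6.30. In the chain nearest to 1700028E10Rik, with a mean of -0.68, the first site went from 6.44 to 4.80 and the next from 6.71 to 6.61. The chain in Macrod2, nearest to Kif16b, had a mean of -0.78, and 1 of its 3 sites, from 6.68 to 5.19, passed 1.5-fold. It lay in a lower stretch of chromosome 2 of 1.85 Mb with a median of -0.49.

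A further 3 lower chains had 2 lower sites each. Between the olfactory receptor genes Olfr539 and Olfr45 the sites went from 6.47 to 6.23, from 7.11 to 6.29 and from 6.32 to 5.05 (mean -0.78). The chain 234974 bp from Chd6, which encodes a chromatin remodeller, had the third highest WT signal of all chains, 1225 summed normalized reads. Its sites went from 9.26 to 8.50, from 8.98 to 8.57 and from 6.74 to 5.90 (mean -0.67). The chain nearest to Got2, at a distance of 1508279 bp, went from 8.65 to 7.92, from 7.14 to 6.34 and from 7.45 to 7.02 (mean -0.65) and lay in a lower stretch of chromosome 8 of 1.61 Mb with a median of -0.45. The dumbbell plot of the lower chains shows which of them rest on 1 site.

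**Figure D4:**
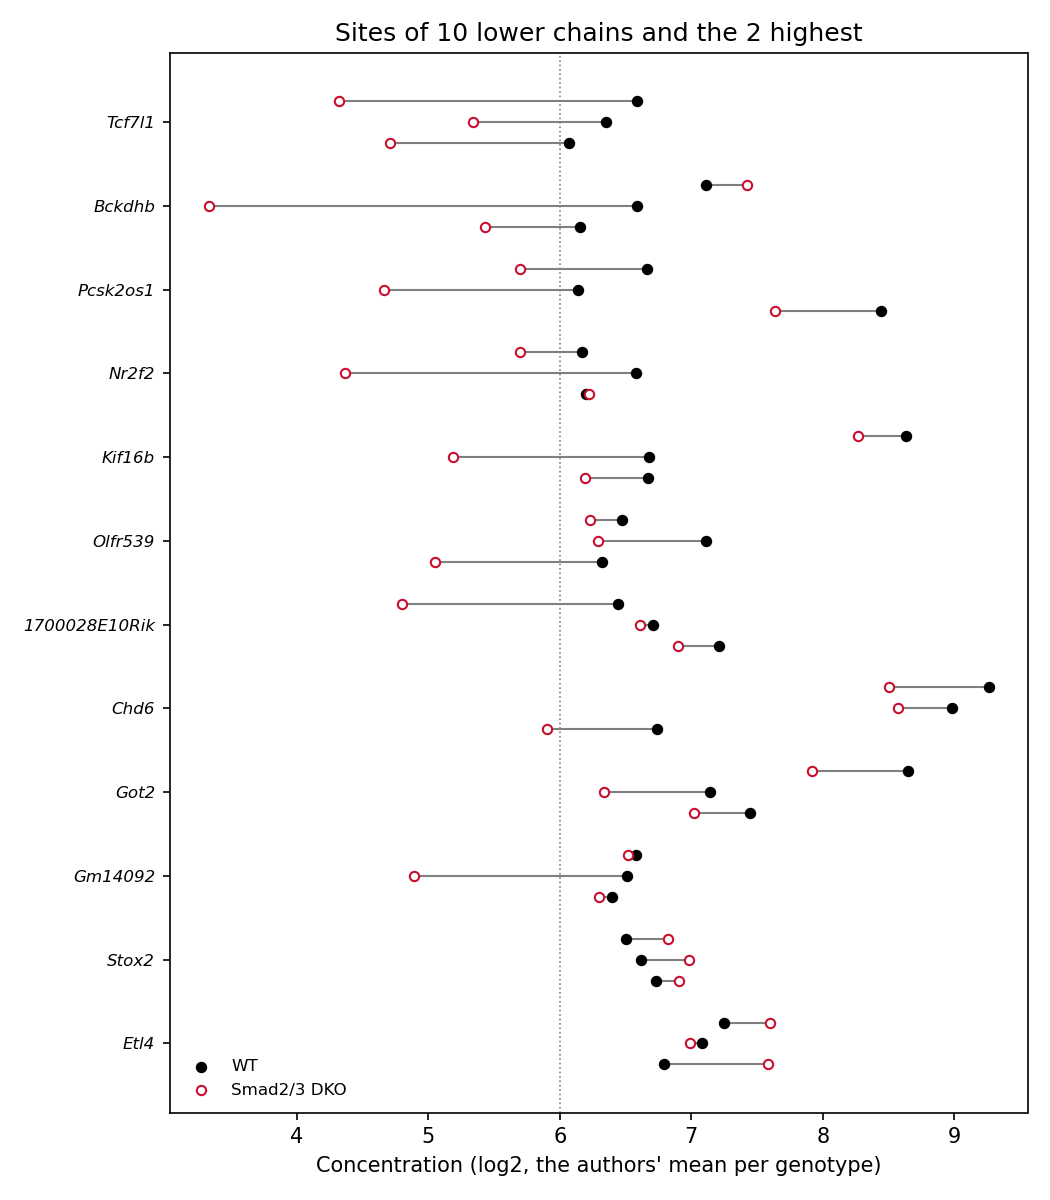
Log2 concentration (x axis) in WT (filled) and Smad2/3 DKO EpiLCs (open) of each site in 10 chains lower past 1.5-fold and the 2 chains with the highest mean, Stox2 and Etl4 (y axis, sites in genome order within a chain). The dotted line is the minimum of 6 that chose the members. All 3 sites beside Tcf7l1 lie far left in DKO, while in the Bckdhb, Nr2f2 and Gm14092 chains 1 site does.

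At the other end, the highest means were small. The chain in an intron of Etl4 had a mean of 0.35, with sites from 7.25 to 7.60, from 7.08 to 6.99 and from 6.79 to 7.58. The chain in Stox2 had a mean of 0.29, with all 3 sites higher in DKO, by 0.32, 0.36 and 0.18. The other 8 of the 10 highest chains, among them those nearest to Olfr1423, F2rl3, Zfp184, Vmn2r96, Utf1, Scaf4 and 4930557F10Rik, had means from 0.09 to 0.16. None of their sites passed 1.5-fold.

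The chains with the most signal in WT changed little, apart from the Chd6 chain above. The highest sum, 1404 normalized reads, belonged to 4 sites in and beside Car10, 281001 bp from Utp18, which went from 6.20 to 6.23, from 7.41 to 6.97, from 9.34 to 8.97 and from 9.0 to 8.75. The next, 1247, was at Sp8, a zinc finger factor of limb and forebrain, where the sites went from 9.35 to 9.19, from 7.63 to 7.41 and from 8.63 to 8.49. The sites at Has1, a hyaluronan synthase, went from 9.45 to 9.61, from 7.15 to 7.10 and from 7.45 to 7.52. The other 6 of the 10 strongest, nearest to Tlk2, Chd6 (a second chain), Nr2f1, Col14a1, Pvt1 and Stard13, had mean differences from -0.37 to -0.03. Of their sites only 1, in Pvt1, was lower past 1.5-fold. Over all chains the mean difference was nearly unrelated to the mean WT concentration (Pearson's r = 0.05 over 134 chains).

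None of the 5 chains of 5 sites held a lower site. Their means were -0.19 at Isl1, a LIM homeodomain factor, -0.15 in Atg10, -0.09 near Tlk2, -0.05 at 6330415G19Rik and 0.02 at Nkx3-2, a homeodomain factor of the skeleton and spleen. At Isl1 the sites went from 7.24 to 7.11, from 8.13 to 7.92, from 6.50 to 6.12, from 6.61 to 6.59 and from 7.43 to 7.22, and all were slightly lower in DKO. Other sites within 1 Mb of the Isl1 chain were lower still, with a median of -0.37.

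A TSS lay inside 26 chains, and none of these was lower as a whole, against 8.21% of all 134 chains. At that share few of 26 would be lower, so nothing is read from this count. The 26 chains ran across the promoters of many genes for developmental transcription factors, among them Sim1, Otx1, Pax9, Foxa1, Foxc1, Sp8, Isl1, Onecut2, Nkx2-2, Nkx3-2 and Ebf3, a list made from the annotation after the chains were known. Their means ranged from -0.45 to 0.15 with a median of -0.14, and 5 of their 92 sites (5.43%) were lower past 1.5-fold. At Otx1 the 4 sites went from 7.26 to 7.30, from 8.38 to 8.40, from 6.24 to 6.11 and from 7.70 to 7.76. In the 108 chains across no TSS the median was -0.24 and 56 of 345 sites (16.2%) were lower. Median GC content was 56.0% in the first group and 49.2% in the second. For comparison, 9.92% of the 5012 other strong distal sites within 50 kb of a TSS were lower. The part of distance from genes here was not tested.

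Distance from genes went with the share of lower sites, in chained and in other sites alike. No TSS was within 50 kb of 52 chains, and 8 of these (15.4%) were lower against 3 of 82 (3.66%) with a TSS in that range. Without the long lower stretches the counts were 6 of 46 and 2 of 81. By site, 20.1% of 179 chained sites over 50 kb from a TSS were lower (interval 14.9 to 26.6) and 9.69% of 258 within 50 kb (6.65 to 13.9). Other strong distal sites had 18.3% of 5250 and 9.92% of 5012. Median GC content of the chained sites was 48.0% in the far and 53.4% in the near group, and its part in the difference was not tested. The split was made after values were seen.

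Long stretches of a chromosome in which sites were lower in DKO held a small share of chained sites, as of all sites. Such a stretch was 1 Mb or longer with a running median over 25 sites at or beyond 0.3, counting sites with a concentration of at least 4 over both genotypes. There were 67 lower and 4 higher stretches, and 4.15% of all sites lay in a lower one. The lower ones held 19 of the 437 chained sites. These sites were in 7 chains, 3 of them lower as a whole, nearest to Tcf7l1, Kif16b and Got2. The others were a second Kif16b chain and those nearest to Foxa2, Gipc2 and Piezo2. The chain 70426 bp from Foxa2, a forkhead factor of endoderm and node, went from 6.56 to 6.05, from 6.92 to 6.49 and from 6.46 to 6.10, a mean of -0.43 against a surrounding median of -0.32. Over all 134 chains the mean difference rose with the median of other sites within 1 Mb (Pearson's r = 0.53), and with the 7 left out r was 0.36 over 127 chains. Copy number of the clones was not measured here, so DNA amount and accessibility cannot be told apart in these stretches.

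**Figure D5:**
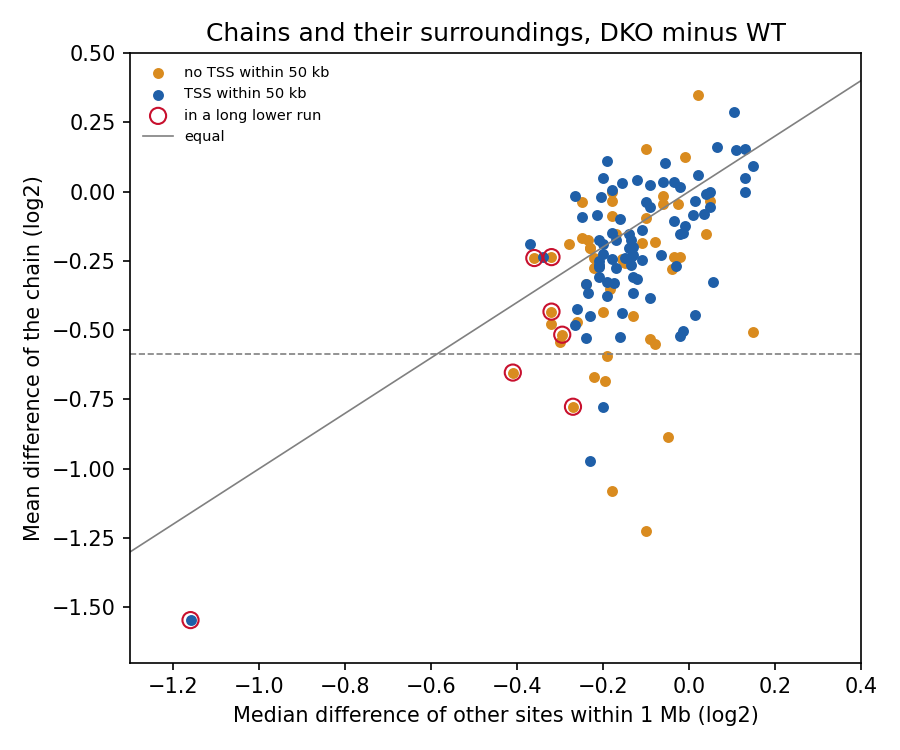
Mean DKO minus WT difference of each chain (y axis) against the median difference of all other sites within 1 Mb with a concentration of at least 4 (x axis), both in log2, with the line of equal values. The Tcf7l1 chain, at -1.55 with surroundings at -1.16, lies alone at the lower left. The Bckdhb, Pcsk2os1 and Nr2f2 chains lie far below their surroundings, which are at -0.10, -0.18 and -0.05. The dashed line is 1.5-fold lower, and red circles mark the 7 chains in long lower stretches.

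Few genes had a chain nearby, in the gene lists and among all genes. A gene had a chain when a chained site was within 50 kb of one of its TSSs. Among all 24963 curated autosomal genes 187 (0.749%) had one. None of 28 genes of the Nodal pathway, 23 of the BMP pathway and its targets, 19 of naive pluripotency, 8 EpiLC markers and 12 markers of other cells did. At the share of all genes, lists of this size would seldom hold such a gene, so nothing is read from its absence. Of 20 core pluripotency genes Utf1 and Zscan10 did (10.0%), of 27 primed genes Tcf7l1 (3.70%), of 24 streak, mesoderm and endoderm genes Eomes and Foxa1 (8.33%), of 28 extra-embryonic genes Eomes again (3.57%), and of 21 neural genes Nkx2-2 (4.76%). These shares rest on 1 or 2 genes a list and were not tested. Of these chains only the Tcf7l1 chain was lower past 1.5-fold.

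Eomes encodes the T-box factor that starts endoderm and mesoderm formation downstream of Nodal. Its 3 sites, 8811 to 11601 bp from the TSS, went from 6.01 to 5.73, from 6.82 to 6.54 and from 6.51 to 5.94. All were lower in DKO, none past 1.5-fold, with a mean of -0.38 against a surrounding median of -0.19. At Foxa1, a forkhead factor of endoderm, the values went from 6.95 to 6.53, from 7.30 to 7.14 and from 6.57 to 6.44. At Utf1, a chromatin-bound factor of pluripotent cells, they went from 6.03 to 6.12, from 6.03 to 6.57 and from 7.74 to 7.44. Around Zscan10, a zinc finger factor of pluripotent cells, 2 chains had means of -0.05 and -0.08. Only the exonic site in Zscan10 was lower past 1.5-fold there, from 6.89 to 5.97, while its neighbour 5′ on the plus strand was higher in DKO, from 6.68 to 7.05.

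The gap limit of the rule bounded the span of the chains, which had a median of 14645 bp and ranged from 3300 to 27020 bp. Their sites lay between genes about as often as other strong distal sites. Of the chained sites 59.3% were intergenic, 33.2% intronic and 7.55% exonic by their midpoint, against 60.4%, 35.1% and 4.54% of other strong distal sites. Chained sites were 760 bp wide at the median and the others 680 bp. Their median GC content over 500 bp was 50.6% and that of the others 48.8%, and 9.80% against 13.4% of the bases were masked as repeats at the median. Further listed sites lay between the members in 70 chains. The 92 distal ones, all weaker, had a median WT concentration of 4.60, and 12 of them (13.0%) were lower and 6 (6.52%) higher past 1.5-fold. The 43 within 2.5 kb of a TSS had a median difference of -0.02, and 1 was lower.

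Sites of a chain were not copies of each other. Of 512 pairs of sites within a chain, 4 shared more than 5% of their 12-base stretches over 500 bp, 3 of them in the chain nearest to Zfp184, in which all 4 sites were slightly higher in DKO.

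Of the 14 strings only that of Tead had a share in other strong distal sites, 31.0%, outside the 95% Wilson interval of its share in chained sites, 26.5% (22.6 to 30.9). With 14 strings compared, no difference is called from this. Over 500 bp, the FoxH1 string was in 3.66% of chained sites, 2.42% of other strong distal sites and 2.16% of all 56572 distal sites. The GC-rich Smad string was in 7.32%, 7.43% and 6.16%, the Smad palindrome in 0.915%, 0.419% and 0.396%, and the octamer in 6.18%, 6.12% and 5.13%. The Otx2 string was in 14.6%, 16.1% and 16.1%, the Foxd3 string in 6.86%, 8.48% and 8.17%, the CTCF string in 9.15%, 10.6% and 10.5%, and the E-box in 41.2%, 40.1% and 39.3%. For the Sox, Tead, Esrrb, Klf, AP-1 and Zic strings the shares in chained sites were 9.15%, 26.5%, 1.14%, 22.0%, 14.4% and 27.5%, and in other strong distal sites 8.59%, 31.0%, 0.789%, 21.5%, 15.5% and 28.0%.

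Among chained sites, 4 of the 61 lower sites held the FoxH1 string (6.56%) against 3.19% of the 376 others, and 8 held the Foxd3 string (13.1% against 5.85%). The GC-rich Smad string was in 2 lower sites (3.28% against 7.98%). Chained sites with the FoxH1 string, 16 in all, had a median difference of -0.30 and those without it -0.17. Of the 16, 25.0% were lower, against 13.5% of those without it. In other strong distal sites the same order was seen over more sites: of the 248 with the FoxH1 string 30.6% were lower, with a median difference of -0.31, against 13.8% and -0.16 without it. The Foxd3 string went the same way there (20.0% of 870 sites lower against 13.7%), and the GC-rich Smad string the other way (6.82% of 762 against 14.8%). In chained sites 15.6% with the Klf string and 13.5% without it were lower, against 10.3% and 15.3% in other strong distal sites. Tead turned too (17.2% and 12.8%, against 13.7% and 14.4%), as did CTCF (20.0% and 13.4%, against 13.6% and 14.3%). Sox (10.0% and 14.4%, against 16.4% and 14.0%) and AP-1 (11.1% and 14.4%, against 14.9% and 14.1%) turned the other way. The octamer, Otx2, Smad palindrome, Esrrb, Zic and E-box strings kept their order. Of the other 11 strings in chained sites, the octamer was in 9.84% of lower sites against 5.59% of the rest, the Smad palindrome in 1.64% against 0.798%, Tead in 32.8% against 25.5%, Klf in 24.6% against 21.5%, CTCF in 13.1% against 8.51% and the E-box in 49.2% against 39.9%. Sox was in 6.56% against 9.57%, AP-1 in 11.5% against 14.9% and Esrrb in 0% against 1.33%, while Otx2 (14.8% against 14.6%) and Zic (27.9% against 27.4%) were close. The counts in chained sites are small, and all these shares stand as a description.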

How the data were processed

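ATAC-seq reads were processed by the authors before deposit: alignment to mm10 with Bowtie2, removal of ambiguous, blacklisted and duplicate reads with SAMtools, site calling with DANPOS2 against the Tn5-cut genomic DNA, and comparison with DiffBind. Versions are not given in the sources used here. The deposited table gives, for each site, the log2 concentration that the authors computed per genotype and over both. It also holds their fold, p-value and FDR, none of which was used.

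Values per library were not analysed here and the authors' p-values and FDR were set aside, so no difference is tested here against the spread between differentiations, and depth is unknown. DKO minus WT was subtracted from the concentrations. TSSs came from the curated transcripts of RefSeq on GRCm38.p6 (45756 transcripts, 26180 genes). The midpoint of a site set its distance, its annotation and its 500 bp motif window, since summits were not given. A chain was called lower or higher when its mean passed 1.5-fold. Named were the 10 chains with the lowest and the 10 with the highest mean, the 10 strongest in WT, the 5 with most sites and those near listed genes. Some of these, and some sequences, are not reported here. The rest were named after their values were seen. Members, lists and limits were chosen with earlier results of these data known. Chain building was tested on simulated data. Python 3.11.15, numpy 2.4.6, pandas 2.3.3 and scipy 1.17.1 were used. Each minimum, gap and distance was varied, as given at the end.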

Additional observations from a re-analysis of the deposited data

How the results depend on the processing

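No paired analysis was possible because the table holds 1 value per genotype, and for the same reason no differentiation could be left out in turn. The sign of the median difference over chains was the same under all 15 alternatives, which the choice of sites partly set in advance. The 2-fold limit could not change the median. Apart from the choices on the DKO concentration and on both genotypes, all still chose sites by the WT concentration. With at least 5 sites, the means of the 5 chains ran from -0.19 to 0.018 and so on both sides of 0. The choice of the selecting genotype moved most values. Chosen on the DKO concentration, the median was -0.0625, with 1.03% of chains, 4.43% of chained sites and 5.40% of other strong distal sites lower; chosen on both genotypes these were -0.14, 2.63%, 8.87% and 9.81%. Chains higher past 1.5-fold made up 2.06% when chosen on the DKO concentration and 0.877% when chosen on both genotypes. Of the 316 sites chained by DKO values, 242 were also chained by WT values (76.6% and 55.4% of each list). At a minimum WT concentration of 7 the median was -0.11, with 7.27% of chained and 11.56% of other sites lower, and at 5.5 it was 15.5% of other sites. With chains of at least 2 sites the median was -0.17. With at least 5 sites it was -0.086, and 0 chains and 0 sites were lower, over 5 chains. Centred on the median of all sites, the median was -0.15, with 10.3% of chained and 11.1% of other sites lower. Without long runs 12.48% of other sites were lower. At 2-fold, 2.24% of chains, 3.66% of chained and 4.25% of other sites were lower. The gap of 5 or 25 kb, the TSS distance of 5 kb, predicted TSSs, splitting at TSSs and summed reads left the median and the shares within their intervals, though the number of chains ran from 40 to 324 over these. A 200 bp motif window lay inside the 500 bp one, so the share of a string could not rise, and all 14 fell. The order of chained and other strong distal sites turned for the octamer (2.52% against 3.62%), Otx2, Esrrb, AP-1 and Zic, and stayed for the rest. Between lower and other chained sites it turned for Otx2 (3.28% against 7.71%), Zic, CTCF and the Smad palindrome, over few sites. Under these settings, with all WT levels together, the chained and other shares lower were within 5 percentage points except with at least 5 sites. Within single WT bins they lay further apart, 20.9% against 14.9% at 6.5 to 7 and 7.50% against 12.8% at 7 to 8. Values per library were not analysed here and the authors' test columns were not used, so no difference is set against replicate error.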
